A study of Mus musculus with 91 samples.

Results

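Voltage-gated calcium channels open when the membrane depolarises, and their pore is a single large protein, the alpha1 subunit, which sets the type of calcium current. The 8 alpha1 subunit genes described here, Cacna1a, Cacna1b, Cacna1c, Cacna1d, Cacna1e, Cacna1g, Cacna1h and Cacna1i, were chosen by their Ensembl gene IDs, whatever their values. All 8 were among the 14355 genes of the deposited count table. The table held ribosome-associated mRNA from the nucleus accumbens of mice, measured in 91 libraries. D1 libraries (n = 45, 22 from males and 23 from females) came from Drd1-Cre mice and D2 libraries (n = 46, 23 from males and 23 from females) from A2a-Cre mice. Both Cre lines had been crossed to RiboTag mice, in which Cre switches on HA-tagged Rpl22, so that anti-HA antibody pulls down the ribosomes of the Cre-expressing neurons.

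All mice were over 10 weeks old and on a light-dark schedule, and punches of 2 mice were pooled for each sample. Tissue was taken at 6 Zeitgeber times (ZT, hours after lights on), namely ZT2, ZT6 and ZT10 in the light and ZT14, ZT18 and ZT22 in the dark. Each of the 24 combinations of cell type, sex and time held 3 or 4 libraries. Each cell type came from 1 Cre line, so a difference between D1 and D2 neurons and a difference between the lines cannot be told apart. The count table gives gene IDs without names, and the names of the 8 genes come from the rule that chose them. Markers of D1, D2 and other cells, and other calcium channel genes, were therefore not scored here. A pull-down of this kind can hold RNA of other cells, and its part in the results was not tested. Fewer ribosomes of a cell type in a pull-down and less mRNA per ribosome cannot be told apart in such libraries.

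The alpha1 subunits fall into 3 families. The Cav1 family carries L-type current, which lasts as long as the depolarisation and couples activity to enzymes and to transcription. Cacna1c encodes the more abundant L-type channel of heart and brain, and Cacna1d one that opens at less depolarised voltages. The Cav2 family (Cacna1a for P/Q-type, Cacna1b for N-type and Cacna1e for R-type current) is best known for triggering transmitter release at nerve terminals. The Cav3 family (Cacna1g, Cacna1h and Cacna1i) carries T-type current, which opens near rest and underlies low-threshold spikes and bursts. In striatal spiny projection neurons, calcium entry through these channels acts in spines and dendrites, and dopamine receptor signalling is known to modulate L-type current.

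In GRCm38.p6, the mouse assembly of the RefSeq annotation, the Cav1 genes lie at chr6:118587240-119197384 (Cacna1c, ENSMUSG00000051331) and chr14:30039941-30491156 (Cacna1d, ENSMUSG00000015968). The Cav2 genes lie at chr8:84338631-84640251 (Cacna1a, ENSMUSG00000034656), chr2:24603860-24763200 (Cacna1b, ENSMUSG00000004113) and chr1:154390806-154884785 (Cacna1e, ENSMUSG00000004110). The Cav3 genes lie at chr11:94408391-94474400 (Cacna1g, ENSMUSG00000020866), chr17:25374285-25436334 (Cacna1h, ENSMUSG00000024112) and chr15:80287238-80398292 (Cacna1i, ENSMUSG00000022416). Protein-coding genes overlap 3 of these loci: Dcp1b overlaps Cacna1c, Chdh and Dcp1a overlap Cacna1d, and Tpsg1 overlaps Cacna1h. The sources used here do not give the strand setting of the counting, so reads shared with those neighbours cannot be told apart from the channels' own.

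RefSeq promoter windows, from 250 bases before to 50 bases after a transcription start, were at hand for 5 of the 8 genes, as 8 windows. A window is printed for each of 3 genes whose mean levels in D2 neurons differed between the letters in the sample titles, as described below: Cacna1b and Cacna1d, with higher means for letters C and D than for A and B, and Cacna1i, with a lower one. Each is written 5′ to 3′ on the gene's strand, and capitals mark TGACG on either strand, the core of the cyclic AMP response element.
Cacna1b promoter, chr2:24763103-24763402, minus strand: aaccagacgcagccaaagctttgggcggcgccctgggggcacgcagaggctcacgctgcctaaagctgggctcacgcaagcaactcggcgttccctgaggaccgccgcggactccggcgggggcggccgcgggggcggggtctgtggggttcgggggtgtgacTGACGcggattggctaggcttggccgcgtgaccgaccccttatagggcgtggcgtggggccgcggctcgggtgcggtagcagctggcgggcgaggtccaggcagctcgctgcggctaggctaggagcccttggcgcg
Cacna1d promoter, chr14:30353437-30353736, minus strand: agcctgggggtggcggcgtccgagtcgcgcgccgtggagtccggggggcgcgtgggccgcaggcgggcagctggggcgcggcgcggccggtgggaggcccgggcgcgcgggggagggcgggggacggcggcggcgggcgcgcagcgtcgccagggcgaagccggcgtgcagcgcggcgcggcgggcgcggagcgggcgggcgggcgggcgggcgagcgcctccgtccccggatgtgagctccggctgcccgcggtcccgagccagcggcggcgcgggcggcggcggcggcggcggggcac
Cacna1i promoter, chr15:80286988-80287287, plus strand: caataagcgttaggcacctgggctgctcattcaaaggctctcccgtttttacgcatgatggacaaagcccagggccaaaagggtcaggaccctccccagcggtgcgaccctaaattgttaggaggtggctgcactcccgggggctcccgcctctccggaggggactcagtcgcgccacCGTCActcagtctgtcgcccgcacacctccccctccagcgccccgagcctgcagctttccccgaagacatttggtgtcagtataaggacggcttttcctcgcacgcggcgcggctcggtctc
The Cacna1b window was 72.3% G or C, the printed Cacna1d window 87.3% and the Cacna1i window 62.7%. The median over all 32851 windows in the table was 52.7%. Cacna1d had another window, not printed, at chr14:30491107-30491406, which was 40.3% G or C. None of the 8 windows held the full element TGACGTCA (1.79% of all windows on either strand). None held the E-box CACGTG bound by the clock proteins (7.15%), the D-box TTATGTAA (0.938%) or the AGGTCA bound by REV-ERB and ROR receptors (16.3%). TGACG, which is part of TGACGTCA, was in 3 of the 8 windows, 1 each for Cacna1b, Cacna1c and Cacna1i, against 20.8% of all windows. A match or its absence describes only these letters in these windows.

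Total counts per library were 6872165 to 24665262, with a median of 14047068. Every alpha1 gene had reads in all 91 libraries, with counts from 285 for Cacna1g to 24712 for Cacna1e, so counting error was small. Levels are given as CPM, counts scaled to a common normalised library total, and are compared only within a gene, since transcript lengths were not used. Letters A to E in the sample titles separated libraries within a group. D2 libraries with the same letter deviated together from their group means over all genes in 243 of 243 pairs, and D1 libraries in 148 of 223 pairs. Mean total counts in D2 libraries were 19727033 for letter A, 16241681 for B, 11336342 for C and 10904585 for D. Separately, 3 D1 libraries of males (ZT10 letter B, ZT22 letter B and ZT18 letter D) stood apart, with 789, 722 and 205 genes at 0, where no other library had over 3. Cacna1i was lower in those 3, at 87.4, 85.8 and 81.7 CPM, than in any of the other 42 D1 libraries (98.1 to 147.0 CPM). Cacna1e was higher in them, at 1155, 1143 and 1122 CPM, than in any of the other 42 (923.9 to 1117 CPM).

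Mean levels in D1 and D2 neurons were compared first. The T-type gene Cacna1h was higher in D1 neurons and the L-type gene Cacna1c slightly lower. The other 6 alpha1 genes did not pass the test in the main fit, which had no block for the letter. With the letter as a block, Cacna1a and Cacna1e also passed, both lower in D1 neurons, against 38.1% of all genes. edgeR's quasi-likelihood test was used, with p-values adjusted over all 14355 genes by the Benjamini-Hochberg method and called under 0.05. Without the block it passed 2 of the 8 genes. Over all genes it passed 19.3%, with 9.44% higher and 9.86% lower in D1 neurons, so the share among the channels was near that background. The median difference of the 8 genes was -0.07 on the log2 scale (D1 minus D2), against -0.01 over all genes. The median size of the difference was 0.07 for the 8 genes and 0.09 for all.

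Cacna1h encodes a T-type channel that opens at low voltage and is inhibited by nickel and zinc ions. Its level was 82.3, 104.8 and 136.9 CPM (lowest, median and highest) in D1 libraries and 76.8, 89.5 and 114.8 CPM in D2 libraries. The ranges overlapped, but 41 of 45 D1 libraries lay above the D2 median and 6 above the highest D2 library. The mean was 105.0 ± 10.9 CPM in D1 neurons and 90.8 ± 9.15 CPM in D2 neurons (SD, n = 45 and 46), a log2 difference of 0.20 ± 0.03 (SE), or 1.15-fold (edgeR adjusted p = 6.75e-08). The 95% interval of the difference was 0.14 to 0.26. The D1 mean was above the D2 mean in 12 of 12 combinations of sex and time, by 0.07 to 0.37 on the log2 scale. In 4 of the 12, every D1 library was above every D2 library.

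The Cacna1h difference was 0.20 in males and 0.22 in females on the log2 scale. By time of day, D1 minus D2 was 0.29 at ZT2, 0.21 at ZT6, 0.24 at ZT10, 0.17 at ZT14, 0.14 at ZT18 and 0.17 at ZT22. Within letters it was 0.21 for A, 0.26 for B, 0.24 for C and 0.16 for D. Males at ZT2 had the highest D1 mean, 118.2 ± 9.78 CPM (SD, n = 4), against 91.2 ± 13.0 CPM in D2 neurons of males at ZT2 (n = 4). Males at ZT18 had the lowest D1 mean, 92.6 ± 5.97 CPM (n = 3), against 86.7 ± 4.11 CPM in D2 neurons of males at ZT18 (n = 4). The call held in all 13 alternative analyses, with differences of 0.17 to 0.23. Without the 3 D1 libraries that stood apart, the mean log2 CPM differed by 0.22.

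**Figure D1:**
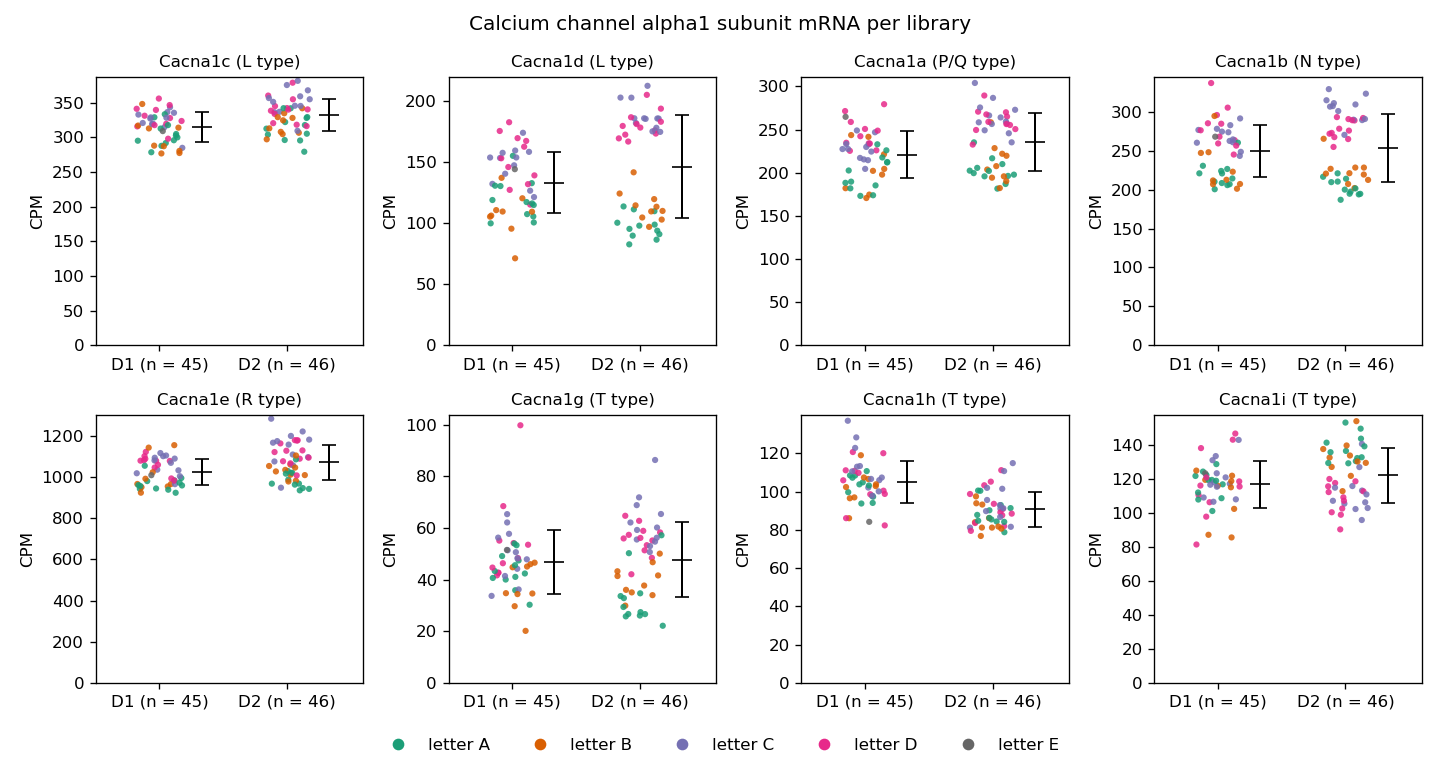
Level of each alpha1 gene in CPM (vertical axis, from 0) in every library, with D1 neurons on the left and D2 neurons on the right of each panel. Points are libraries coloured by the letter in the sample title, and bars are the mean ± SD; Cacna1h points sit higher in D1 neurons, and Cacna1d points in D2 neurons form separate clusters by letter.

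Cacna1c, the main L-type gene, was at 276.9, 317.8 and 356.1 CPM (lowest, median and highest) in D1 libraries and 279.4, 334.4 and 381.7 CPM in D2 libraries. The ranges overlapped over most of their length, and 8 of 45 D1 libraries lay above the D2 median. The mean was 315.0 ± 21.0 CPM in D1 neurons and 332.1 ± 23.5 CPM in D2 neurons (SD, n = 45 and 46). The log2 difference was -0.07 ± 0.02 (SE), 1.05-fold lower in D1 neurons (edgeR adjusted p = 0.0126). The D1 mean was below the D2 mean in 12 of 12 combinations of sex and time, by as little as -0.01 and as much as -0.14 on the log2 scale. Within letters the difference was -0.05 for A, -0.09 for B, -0.12 for C and -0.05 for D. The call was lost without letter B (edgeR adjusted p = 0.0613, difference -0.06) and without letter C (adjusted p = 0.262, difference -0.05).

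Cacna1d, the other L-type gene, had the widest spread between libraries in D2 neurons relative to its level after Cacna1g. It was at 71.1, 131.7 and 182.3 CPM (lowest, median and highest) in D1 libraries and 82.5, 167.9 and 212.1 CPM in D2 libraries. The log2 difference of -0.13 ± 0.08 (SE) did not pass the test (edgeR adjusted p = 0.227, 95% interval -0.29 to 0.02). Its direction differed between letters, at 0.28 for A and -0.10, -0.35 and -0.26 for B, C and D. Without letter A, the difference was -0.24 and passed the test (edgeR adjusted p = 0.0114), as did 6912 of all 14355 genes.

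In the fit without a block, none of the Cav2 genes passed the test between D1 and D2 neurons. Cacna1a, the pore of the P/Q-type channels that trigger fast transmitter release, averaged 220.6 ± 27.2 CPM in D1 neurons and 235.5 ± 33.2 CPM in D2 neurons (SD, n = 45 and 46), a log2 difference of -0.09 ± 0.04 (SE; edgeR adjusted p = 0.106). Cacna1e, the R-type gene, averaged 1025 ± 65.0 CPM in D1 neurons and 1071 ± 85.3 CPM in D2 neurons, a difference of -0.06 ± 0.02 (edgeR adjusted p = 0.0575). Both had D1 means below D2 means in 10 of 12 combinations of sex and time. With the letter as a block, both passed the test (edgeR adjusted p = 0.0030 for Cacna1a and 0.0066 for Cacna1e), against 38.1% of all genes. Without letter A and without the block, both passed it (edgeR adjusted p = 0.0301 for Cacna1a and 0.0282 for Cacna1e). In that fit 6912 of all 14355 genes passed. Without the 3 D1 libraries that stood apart, Cacna1e passed it too (difference -0.07, edgeR adjusted p = 0.0215), as did 2795 of all genes. Cacna1b, the N-type gene, averaged 249.9 ± 33.3 CPM in D1 neurons and 253.4 ± 43.6 CPM in D2 neurons, and its difference of -0.02 ± 0.05 had a 95% interval of -0.11 to 0.08.

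The other T-type genes did not pass the test between the cell types either. Cacna1g averaged 46.8 ± 12.4 CPM in D1 neurons and 47.8 ± 14.6 CPM in D2 neurons (SD, n = 45 and 46). Its log2 difference of -0.02 ± 0.09 (SE) had a 95% interval of -0.19 to 0.15. Within letters that difference ran from -0.33 for C to 0.45 for A. Cacna1i, which encodes the T-type channel largely restricted to the nervous system, averaged 117.0 ± 13.7 CPM in D1 neurons and 122.5 ± 16.1 CPM in D2 neurons. Its difference of -0.07 ± 0.04 gave an edgeR adjusted p of 0.225. It was -0.24 and -0.27 within letters A and B, and 0.11 and 0.10 within letters C and D.

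**Figure D2:**
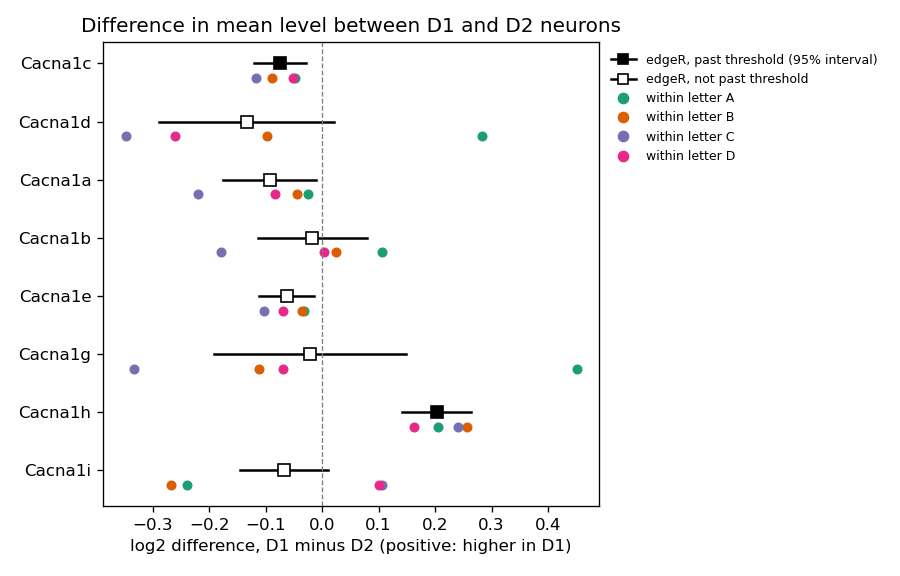
Difference in mean level between D1 and D2 neurons for each gene, on the log2 scale with positive values higher in D1 neurons. Squares are edgeR estimates with 95% intervals, filled where they passed the test, and circles are the differences within each letter; Cacna1h lies to the right of 0 within all 4 letters, while the letters of Cacna1d, Cacna1g and Cacna1i lie on both sides.

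Whether the levels followed a 24 h rhythm was tested next with a cosine curve in each cell type, with the amplitude being the log2 height of the peak above the mean. In D1 neurons, 0 of the 8 genes were called by edgeR's adjusted p, against 0.495% of all genes, and 1 of the 8 had an unadjusted p under 0.05. That gene was Cacna1g, whose amplitude was 0.20 ± 0.07 (SE) with a peak at ZT16.7 (edgeR adjusted p = 0.342). Its mean in D1 neurons was 40.9 CPM at ZT2, 43.2 at ZT6, 44.6 at ZT10, 52.1 at ZT14, 53.8 at ZT18 and 48.4 CPM at ZT22. The SDs were 7.62 to 22.3 CPM (n = 6 to 8 per time), and the ranges of libraries overlapped between times. These SDs describe single libraries, with differences between letters included, and not the error of a time mean. Fitted amplitudes of the other 7 genes in D1 neurons ran from 0.01 for Cacna1e to 0.11 for Cacna1d. The median amplitude was 0.05 for the 8 genes and 0.09 for all genes. Time means of the L-type genes in D1 neurons differed little for Cacna1c, from 301.6 CPM at ZT22 to 332.4 CPM at ZT18. They differed more for Cacna1d, from 119.3 CPM at ZT2 to 143.1 CPM at ZT18. Letter B was missing from the D1 libraries at ZT18 and from those of males at ZT14. Its D1 mean was the lowest of the letters for Cacna1d, at 107.1 CPM, and for Cacna1g, at 37.4 CPM. Time means in CPM were not adjusted for this. With letter means removed, Cacna1d in D1 neurons averaged -0.13 (log2) at ZT2, 0.06 at ZT10 and 0.04 at ZT18. For the Cav2 genes the highest D1 time mean was 1.06 times the lowest for Cacna1a, 1.10 times for Cacna1b and 1.08 times for Cacna1e. Cacna1h in D1 neurons averaged 110.8 CPM at ZT2 and 97.3 CPM at ZT18, its highest and lowest time means, and Cacna1i 126.0 CPM at ZT2 and 109.8 CPM at ZT10.

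In D2 neurons, 0 of the 8 genes were called, against 2.94% of all genes, and none had an unadjusted p under 0.05. Since letters paired the D2 libraries, the same test was run with the letter as a replicate block, and it called 2 of the 8 genes, Cacna1a and Cacna1g, against 22.3% of all genes. The share of the channels called was thus near that of all genes. For Cacna1a, the P/Q-type gene, the amplitude was 0.08 ± 0.02 (SE) with a peak at ZT1.5 with the block (edgeR adjusted p = 0.0102), and 0.08 ± 0.04 without it (adjusted p = 0.667). For Cacna1g, the T-type gene, it was 0.17 ± 0.05 with a peak at ZT4.1 with the block (edgeR adjusted p = 0.0287), and 0.17 ± 0.09 without it (adjusted p = 0.767).

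Relative to the mean of each letter, Cacna1a in D2 neurons averaged 0.10 on the log2 scale at ZT2, 0.05 at ZT6, -0.08 at ZT10, -0.06 at ZT14, -0.01 at ZT18 and 0.01 at ZT22. At ZT2, 7 of 7 libraries were above their letter's mean, and at ZT14 1 of 8 was. In CPM, Cacna1a in D2 neurons averaged 255.0 ± 34.1 at ZT2 (SD, n = 7) and 221.4 ± 31.9 at ZT10 (n = 8), and these ranges overlapped. In D1 neurons the same gene averaged 215.1 ± 22.7 CPM at ZT2 and 222.4 ± 32.7 CPM at ZT10 (SD, n = 8 each). Its call in D2 neurons was lost without letter A (edgeR adjusted p = 0.0613) and held without letter B, C or D (adjusted p = 0.0465, 0.0393 and 0.0258), all with the block.

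Relative to the mean of each letter, Cacna1g in D2 neurons averaged 0.20 on the log2 scale at ZT2, 0.17 at ZT6, -0.06 at ZT10, -0.10 at ZT14, -0.08 at ZT18 and -0.08 at ZT22. At ZT2, 6 of 7 libraries were above their letter's mean, and at ZT14 2 of 8 were. The Cacna1g call was less stable than that of Cacna1a: with the block, it was lost without letter A (edgeR adjusted p = 0.218) and without letter C (adjusted p = 0.169). With time as 6 separate levels and the block, Cacna1a was called (edgeR adjusted p = 0.0251) and Cacna1g was not (adjusted p = 0.195). The other 6 genes were not called in D2 neurons with or without the block, and their amplitudes with the block were 0.02 to 0.04. In CPM, the highest D2 time mean was 1.05 times the lowest for Cacna1e, 1.07 times for each of Cacna1b, Cacna1c, Cacna1d and Cacna1h, and 1.11 times for Cacna1i.

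**Figure D3:**
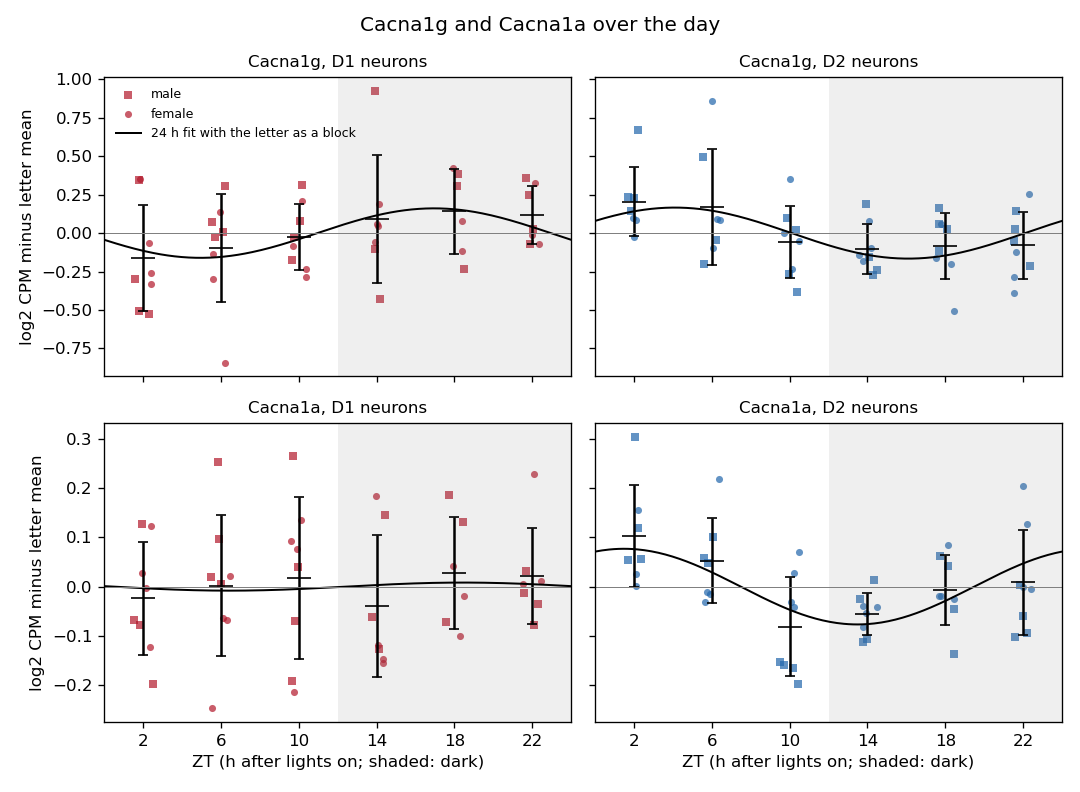
Cacna1g (top) and Cacna1a (bottom) over the day in D1 neurons (left) and D2 neurons (right), as log2 CPM minus the mean of the library's letter (vertical axis) against ZT in hours (horizontal axis, dark phase shaded). Squares are males, circles females, bars the mean ± SD at each time and curves the 24 h fit with the letter as a block; in D2 neurons both genes average above 0 at ZT2, and Cacna1g in D1 neurons averages below 0 at ZT2.

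The difference in rhythm between the cell types was tested directly. It was called for 0 of the 8 genes, against 0.0139% of all genes, and 1 gene, Cacna1g, had an unadjusted p under 0.05. Its fitted curves differed by an amplitude of 0.36 ± 0.12 (SE; edgeR adjusted p = 0.424). D1 minus D2 of mean log2 CPM for Cacna1g was -0.41 at ZT2, -0.31 at ZT6, 0.02 at ZT10, 0.22 at ZT14, 0.31 at ZT18 and 0.16 at ZT22. These means were not adjusted for letters. Letter B was missing from D1 at ZT18 and D1 males at ZT14, and from D2 females at ZT2 and D2 males at ZT6. It averaged 37.4 CPM in D1 neurons and 39.6 CPM in D2 neurons, below letters C and D in each. With letter means removed, Cacna1g averaged -0.16 at ZT2 and 0.14 at ZT18 in D1 neurons, and 0.20 and -0.08 in D2 neurons. With the letter as a block over both cell types, the Cacna1g difference in rhythm was 0.32 (edgeR adjusted p = 0.130). It was not called, against 0.529% of all genes. With letters within each cell type as a block, it was 0.32 and was called (edgeR adjusted p = 0.0404), against 3.24% of all genes. That call was lost when any 1 letter was left out (adjusted p = 0.0691 to 0.206) and without the 3 D1 libraries that stood apart (adjusted p = 0.0863). It was also lost without the D1 libraries of females at ZT6 letter B and males at ZT14 letter D, whose Cacna1g values were far from their groups (difference 0.26, edgeR adjusted p = 0.116). For the other 7 genes, the difference in amplitude was 0.02 to 0.14 without the block.

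Males and females were compared within each cell type. In D1 neurons 0 of the 8 genes differed in mean level, against 0.0418% of all genes, and in D2 neurons 0 of the 8, against 0.216%. With the letter as a block in D2 neurons the background was 9.45%, and still 0 of the 8 were called. Without the block, none of the 8 had an unadjusted edgeR p under 0.05 in either cell type. With the block in D2 neurons 1 did, Cacna1d. The largest difference in D1 neurons was that of Cacna1g, at 48.5 ± 14.2 CPM in males and 45.1 ± 10.5 CPM in females (SD, n = 22 and 23), a log2 difference of 0.11 ± 0.10 (SE, 95% interval -0.09 to 0.32). The largest in D2 neurons was that of Cacna1d, at 141.6 ± 41.0 CPM in males and 150.6 ± 43.3 CPM in females (n = 23 each), a difference of -0.09 ± 0.13 without the block (SE, 95% interval -0.35 to 0.17). With the block, which removes the spread between letters, it was -0.09 ± 0.03 (edgeR unadjusted p = 0.00764, adjusted p = 0.0643).

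For Cacna1c in D2 neurons, males averaged 331.6 ± 20.9 CPM and females 332.6 ± 26.3 CPM (SD, n = 23 each), with a 95% interval of -0.07 to 0.06 on the log2 scale without the block. Cacna1h averaged 105.7 ± 11.7 CPM in males and 104.2 ± 10.4 CPM in females in D1 neurons (n = 22 and 23). In D2 neurons Cacna1h averaged 91.9 ± 9.41 CPM in males and 89.6 ± 8.93 CPM in females. No gene passed the test of whether the sex difference itself differed between D1 and D2 neurons (0 of the 8, against 0.00% of all genes), and none of the 8 had an unadjusted edgeR p under 0.05. The rhythm differed between males and females for 0 of the 8 genes in D1 neurons and 0 of the 8 in D2 neurons by edgeR. The share of all genes was 0.00% in each. Without the block, none of the 8 had an unadjusted p under 0.05 here. With the block in D1 neurons 1 did, Cacna1h (edgeR unadjusted p = 0.0482, adjusted p = 0.933).

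For several of these genes, levels in D2 neurons differed between the letters in the sample titles. Cacna1d in D2 neurons was at 166.6 to 212.1 CPM in the 24 libraries of letters C and D and at 82.5 to 141.4 CPM in the 22 libraries of letters A and B, with no overlap. No other alpha1 gene separated in this way, and 16.9% of all genes did, in either direction. In D1 neurons Cacna1d overlapped, at 115.0 to 182.3 CPM for letters C and D and 71.1 to 154.9 CPM for A and B; 0.0557% of all genes separated there. The ratio of the mean for letters C and D over that for A and B in D2 neurons was 1.76 for Cacna1d, 1.64 for Cacna1g, 1.37 for Cacna1b, 1.27 for Cacna1a, 1.12 for Cacna1e, 1.09 for Cacna1c and 1.07 for Cacna1h. Cacna1i ran the other way, with a ratio of 0.817, and averaged 138.1 CPM for letter A, 132.2 for B, 112.1 for C and 109.0 CPM for D. In D1 neurons the same ratio was 1.31 for Cacna1d, 1.27 for Cacna1g, 1.23 for Cacna1b and 1.17 for Cacna1a. For the remaining genes it ran from 1.04 for Cacna1i to 1.08 for Cacna1c. Letters A and B had the deeper D2 libraries, as given above, and the sources used here do not say what the letters stand for, so the part of depth or batch was not tested.

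**Figure D4:**
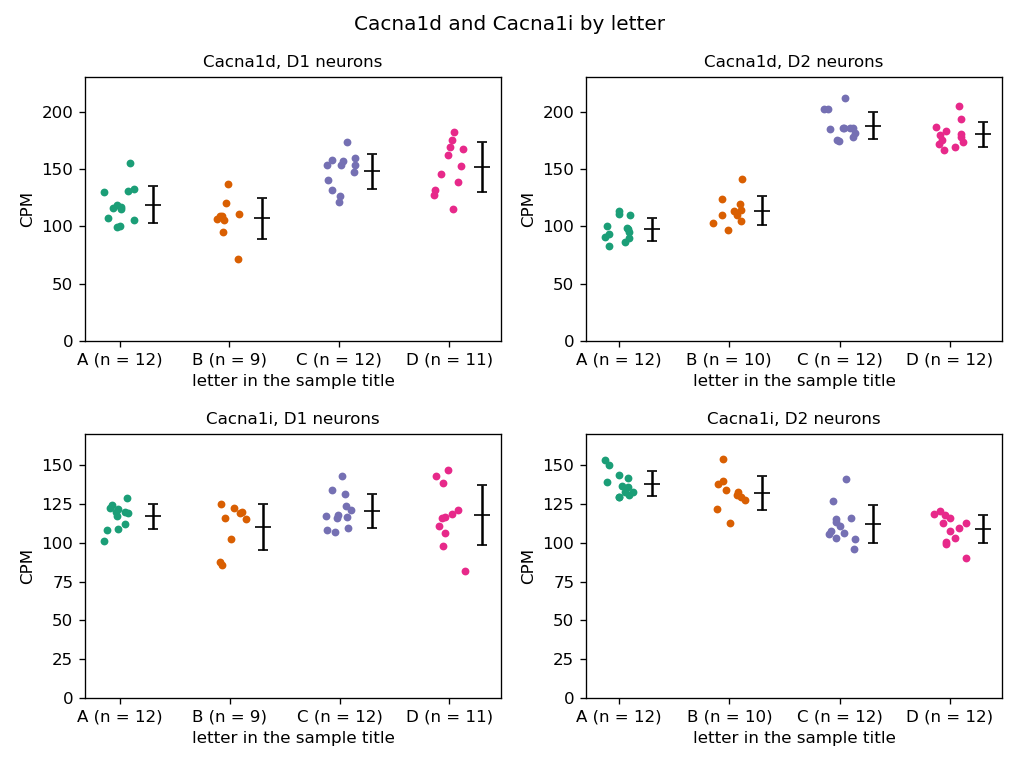
Cacna1d (top) and Cacna1i (bottom) by letter in the sample title, in D1 neurons (left) and D2 neurons (right), in CPM from 0. Points are libraries and bars the mean ± SD; Cacna1d in D2 neurons is at 166.6 CPM or more in every library of letters C and D and at 141.4 CPM or less in every library of A and B, while Cacna1i is lower on average for C and D.

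Variation between libraries was also compared among the 8 genes once the means of each group and letter had been removed. Among the 6 genes other than Cacna1h and Cacna1i, the 15 pairwise Pearson correlations of log2 CPM had a median of 0.55 in D1 neurons (range 0.03 to 0.78, 44 libraries). In D2 neurons the median was 0.35 (range -0.24 to 0.73, 46 libraries). The strongest pair in D1 neurons was Cacna1a with Cacna1b at 0.78, both genes of presynaptic release channels, and in D2 neurons Cacna1c with Cacna1e at 0.73. This set of 6 was not fixed before the data were seen, so the medians describe only those genes. Cacna1h correlated with the 6 genes at -0.26 to 0.20 in D1 neurons and at -0.09 to 0.53 in D2 neurons. Cacna1i correlated with the 6 genes at -0.69 to -0.21 in D1 neurons and at -0.24 to 0.62 in D2 neurons. Cacna1h and Cacna1i correlated with each other at 0.42 in D1 neurons and 0.40 in D2 neurons. Without the 3 D1 libraries that stood apart, the correlations of Cacna1i in D1 neurons were -0.75 to 0.02 and the median among the 6 genes was 0.47. All these values come from the same libraries, which share depth and RNA quality, and they are given as a description.

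**Figure D5:**
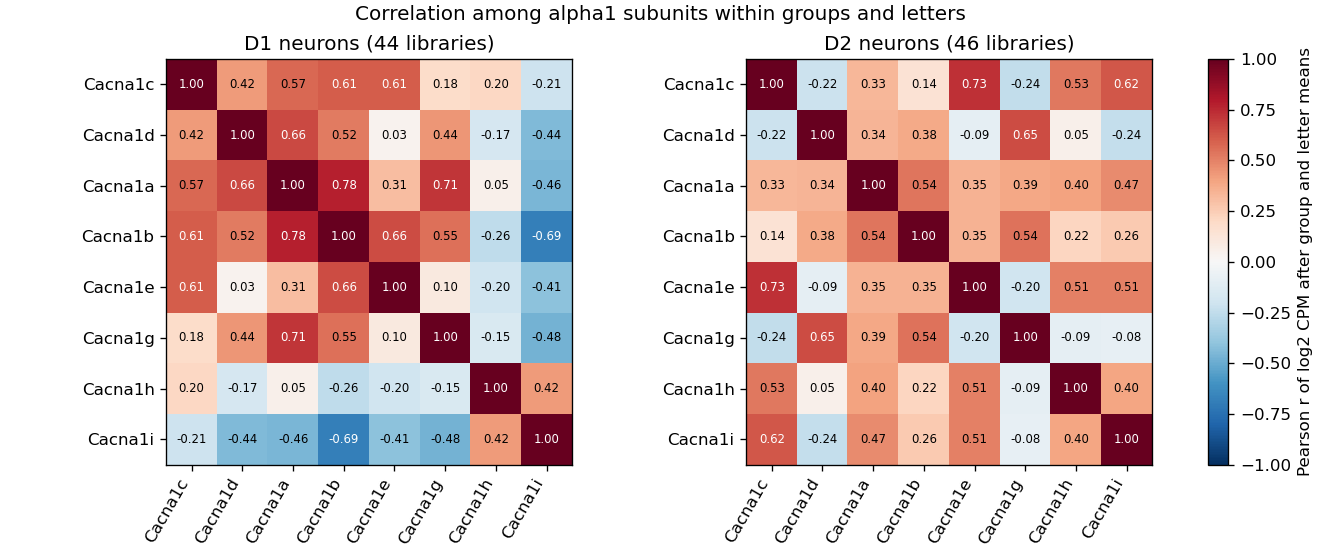
Pearson correlation between alpha1 genes across libraries, after the means of each group (cell type, sex and time) and letter were removed from log2 CPM, in D1 neurons (left) and D2 neurons (right). Colour and printed values are r from -1 to 1; in D1 neurons the row of Cacna1i is negative except with Cacna1h, and in D2 neurons it is mixed.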

How the data were processed

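Ribosome-associated mRNA from D1 and D2 neurons was sequenced in 91 libraries. The deposited table holds whole-number read counts per Ensembl gene, and per its name the authors filtered genes on log CPM, at a threshold that the sources used here do not give. The submitters' processing notes name FastQC 0.11.7, HISAT2 and HTSeq 0.10.0, and the builds GRCm38 and GRCh38 without their roles. Groups came from the labels' cell type, time and sex.

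The 8 genes were taken by ID, and the genes, lists and tests were chosen with earlier results of these data known. Tests ran in edgeR 4.0.16 under R 4.3.3 (TMM, glmQLFit, glmQLFTest), fitting a mean, cosine and sine term (period 24 h) for each cell type and sex. All 91 libraries entered comparisons of cell types, and those of 1 cell type entered the rest. P-values were Benjamini-Hochberg adjusted over all 14355 genes, with a threshold of 0.05. CPM used TMM-adjusted totals over all libraries. Before that adjustment, total counts ranged from 6872165 to 24665262. The SE of an amplitude was derived from the F statistic. The code was tested on simulated data.

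Letters in the titles served as replicates, 1 letter per library in a group. They paired the D2 libraries (correlation of deviations over 0.1 in 243 of 243 same-letter pairs, lowest 0.19, median 0.72). Pairing was weaker and not in every pair among D1 libraries (148 of 223, lowest -0.60, median 0.19). The same held for D1 with D2 libraries (374 of 510, median 0.40). Alternatives were RLE size factors, filterByExpr, the letter as a block, depth as a covariate, time as a factor, each letter left out, the 3 D1 libraries left out, limma 3.58.1 (trend and voom with quality weights) and DESeq2 1.42.0. Fits that combined the block in D2 neurons, or within each cell type, with a letter or single libraries left out, or with time as a factor, were added after seeing the data. All 8 genes were tested in every comparison, and in some comparisons values are given for only part of them. Genes of like pattern and the pathway and marker lists were not named, since the table holds IDs only. Samples are pools of 2 mice, and nothing says that pools never shared a source, so p-values measure the spread between these samples.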

Additional observations from a re-analysis of the deposited data

Results flagged for a closer look

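Of 96 sets of libraries of 1 gene, cell type and time (6 to 8 libraries each), 7 had a highest or lowest library whose gap to the next was large for the range of its set by Dixon's test; chance gives about 1 in 20. Each value is given in CPM. The D2 library of females at ZT22 with letter C was highest in its set for Cacna1c (381.7, the next 324.7), for Cacna1e (1283, the next 1067) and for Cacna1h (114.8, the next 93.6). Cacna1h was also far above the others in the D2 library of males at ZT6 with letter D (111.2, the next 92.9).

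Cacna1g was at 20.2 CPM in the D1 library of females at ZT6 with letter B (the next 42.7) and at 99.7 CPM in the D1 library of males at ZT14 with letter D (the next 54.2). These are its lowest and highest values among all 91 libraries. Cacna1i was at 85.8 CPM in the D1 library of males at ZT22 with letter B (the next 108.9), which is 1 of the 3 D1 libraries that stood apart.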

How the results depend on the processing

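Over 987 values of the 8 genes under the alternatives, 956 stayed on the same side of the threshold, 2 lost a call and 29 gained one. Of 403 differences in mean level, 0 that passed the test in either fit changed sign, and 41 that passed in neither did. Between D1 and D2 neurons, 2 of the 8 genes were called, against 2770 of all 14355 genes. With the replicate block 4 were called, against 5471 (also Cacna1a, edgeR adjusted p = 0.0030, and Cacna1e, 0.0066). With depth as a covariate 4 were called, against 4400. With the block and without the 3 D1 libraries 4 were called, against 6057. By limma voom with quality weights 5 were called, against 8248. With a letter left out 1 to 5 were called, against 1767 to 6912. The genes that gained a call were Cacna1a, Cacna1d and Cacna1e. For the rhythm in D2 neurons, 0 of the 8 genes were called, against 422 of all genes. The replicate block called 2, against 3198, and voom 2, against 3046 (Cacna1a and Cacna1g in both). With letters left out the number was 0 to 2, against 55 to 261 of all genes without the block and 1135 to 2660 with it. With the block and without the D2 library of females at ZT22 letter C it was 2, against 3032. With the block and time as a factor it was 1, against 1463. For the difference in rhythm, 0 of the 8 were called, against 2 of all genes. The letter within each cell type as a block called 1, against 465, and voom 1, against 2266 (Cacna1g in both). For the sex difference in rhythm in D1 neurons, 0 of the 8 were called, against 0 of all genes, and 2 by voom, against 2885 (Cacna1a and Cacna1d). The causes of these changes were not tested.

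Counts over all genes moved more. For the cell types, 2770 genes became 5471 with the block, 4400 with depth, 6912 without letter A, 1767 without letter D and 8248 by voom. With the block 59.6% of the called genes were higher in D1 neurons, against 48.9% without it. For rhythm, 71 in D1 neurons became 162 with the block, 13 without letter C and 717 by voom, and 422 in D2 neurons became 3198 with the block and 55 without letter C. The 2 genes that differed in rhythm became 465 with the block within each cell type and 2266 by voom. The 6 genes that differed by sex in D1 neurons became 1042 with the block and 2 at the lowest. With the block but without the 3 D1 libraries that stood apart, all of males, they became 33. The 31 genes in D2 neurons became 1357 with the block and 7 at the lowest. Counts of 0 for sex by cell type and for sex differences in rhythm became at most 16 (DESeq2), 2885 (D1, voom) and 3 (D2). The block changed no other call of the 8 genes. DESeq2 gave no adjusted p for 5 values of the 8 genes, which are not counted. The lowest count of the 8 genes, 285, bounds counting error only.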
